A study of Mus musculus with 14 samples.

Results

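The Tceal and Bex genes form a family of small, related proteins that lie side by side on the mouse X chromosome. The 10 members described here, Tceal1, Tceal3, Tceal5, Tceal7, Tceal8, Tceal9, Bex1, Bex2, Bex3 and Bex4, were taken by gene symbol, and 9 of them were among the 14837 genes of the input table. The family was chosen by the m6A-RIP counts of 1 Tceal7 transcript, which were close to 0 in Lin28a+ cells, so the m6A-RIP values and the RNA of Tceal7 are given as descriptions without a test.

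The study compared cultured mouse muscle stem cells (MuSCs), the resident stem cells of skeletal muscle, between a control population and a Lin28a+ population. Lin28a is an RNA-binding protein of early development that blocks maturation of let-7 microRNAs, and Igf2bp3 is an RNA-binding protein regarded as a reader of N6-methyladenosine (m6A), a methyl mark on mRNA. RNA was measured in input libraries, methylated fragments by immunoprecipitation with an m6A antibody (m6A-RIP), and protein-bound RNA by immunoprecipitation of Igf2bp3 (Igf2bp3-RIP) or Lin28a (Lin28a-RIP). There were 2 libraries per group and assay, with Lin28a-RIP in Lin28a+ cells only.

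Lin28a+ MuSCs carry the genotype label Lin28a positive and were sorted by flow cytometry from muscle of mice with Lin28a-CreERT2 and LSL-tdTomato. In these mice the CreERT2 expressed from Lin28a can switch on a red fluorescent reporter. Control MuSCs carry the genotype label Control, and the study describes them as cells without appreciable Lin28a expression. How they were isolated is not given in the sources used here. Both were kept on Matrigel in DMEM with serum, and neither received a further treatment before RNA was taken. Age, sex and the number of animals are not given. The study states that each experiment had more biological replicates than there are libraries per group here. Nothing states that the 2 libraries of a group came from separate animals or cultures, so the p-values measure only the spread between these libraries, which may be technical. In such bulk samples, fewer cells that express a gene and less RNA per cell cannot be told apart.

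Summed counts were 4842915 to 6220960 per input library, 21350962 to 31830638 per m6A-RIP library, 9215355 to 34142094 per Igf2bp3-RIP library and 33908110 to 36610494 per Lin28a-RIP library. Lin28a itself was not analysed here. Myogenic markers summed to 9254 to 9463 counts scaled to library size (CPM) in control and to 11555 to 11674 CPM in Lin28a+ libraries. Within that sum, Myog was 3.62-fold higher in Lin28a+ libraries (adjusted p = 1.42e-06 in edgeR). Vcam1 was 3.82-fold lower (adjusted p = 0.000124 in edgeR) and Myf5 2.31-fold lower (adjusted p = 6.56e-06 in edgeR). Cdh15 (1.70-fold) and Pax7 (1.28-fold) were also called higher and Des (1.44-fold) lower, whereas Myod1 and Itga7 were not called. Of the fibro-adipogenic list, 4 of 5 markers were in the table, and their sum was 4.57 to 5.44 CPM in the control libraries and 13.2 to 14.1 CPM in Lin28a+ libraries. Ly6a made up most of it, whereas Pdgfra, Pi16 and Cd34 were under 1 CPM. The sums in control and in Lin28a+ libraries were 0.392 to 0.513 and 0.430 to 0.439 CPM for the endothelial list (Pecam1 alone), 1.95 to 2.69 and 1.53 to 2.16 CPM for macrophages, and 3.86 to 4.26 and 4.08 to 4.65 CPM for pericytes. Within the pericyte sum, Rgs5 was lower (13 counts in each control and 1 in each Lin28a+ library, adjusted p = 0.000971 in edgeR) and Pdgfrb 2.41-fold higher (adjusted p = 0.00225) in Lin28a+ libraries. The part of other cell types in the results was not tested.

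Tceal proteins (transcription elongation factor A-like) are named for their similarity to TFIIS, a factor that lets stalled RNA polymerase II resume, and they are thought to act on transcription in the nucleus. Bex proteins (brain expressed, X-linked) are small and largely unfolded. Bex3, also called Nade, binds the p75 neurotrophin receptor and takes part in its death signalling, and Bex1 binds the same receptor. Bex1 is expressed in regenerating muscle, where it is known from work on satellite cells and on the timing of differentiation, and Tceal7 is known as a muscle-expressed member that restrains myoblast proliferation.

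In RefSeq (GRCm38.p6), the 10 genes spanned 643309 bp of chromosome X in the order Bex2, Bex4, Tceal8, Tceal5, Bex1, Tceal7, Tceal9, Bex3, Tceal3 and Tceal1. Tceal7 lay at chrX:136224041-136226100 and Bex1 at chrX:136213972-136215513, with 8527 bp between them. Tceal5, at chrX:136200948-136203884, was 10087 bp from Bex1 on its other side.

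The promoters of the members are shown because some members are near-copies of each other. A relation between promoter sequence and RNA was not tested. Each window runs from 250 bases before to 50 bases after an annotated start and was taken from RefSeq (GRCm38.p6). Bex1 (chrX:136215464-136215763, minus strand) and Bex4 (chrX:136138746-136139045, plus strand) shared an unbroken run of 271 bases, in capitals below. Bex2 and Bex3 shared a run of 162 bases, and the next longest run, of Tceal8 and Tceal9, was 17 bases.
Bex1: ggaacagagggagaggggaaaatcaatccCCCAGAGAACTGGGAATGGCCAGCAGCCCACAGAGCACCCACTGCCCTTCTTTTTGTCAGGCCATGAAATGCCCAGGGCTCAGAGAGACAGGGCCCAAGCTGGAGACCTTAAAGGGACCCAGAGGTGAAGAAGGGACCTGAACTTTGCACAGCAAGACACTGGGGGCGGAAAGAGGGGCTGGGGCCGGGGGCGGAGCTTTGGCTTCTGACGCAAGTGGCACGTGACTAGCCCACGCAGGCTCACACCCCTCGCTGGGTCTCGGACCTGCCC
Bex4: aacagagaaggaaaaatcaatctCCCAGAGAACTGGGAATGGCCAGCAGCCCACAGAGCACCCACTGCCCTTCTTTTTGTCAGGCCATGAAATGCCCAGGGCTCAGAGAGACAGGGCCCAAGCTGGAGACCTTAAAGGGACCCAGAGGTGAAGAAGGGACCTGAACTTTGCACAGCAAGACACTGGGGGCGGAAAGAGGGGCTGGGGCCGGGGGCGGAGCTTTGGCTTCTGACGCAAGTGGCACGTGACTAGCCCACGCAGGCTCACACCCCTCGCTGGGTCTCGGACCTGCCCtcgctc

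A second feature was the motif CACGTGA, which contains the E-box CACGTG, searched on both strands (reverse complement TCACGTG). It was present in a window of 8 of the 10 members, all but Tceal9 and Bex2, and in 10 of their 14 windows. Overlapping windows of Tceal3 and of Tceal5 hold the same site, which leaves 8 sites, of which those of Bex1 and Bex4 lie in the run they share. Of all 32851 promoter windows of the same length, 3.77% held it. No other motif was counted, and the choice of this motif may have followed from the members' own windows, so these shares are not a test. Windows of the other genes of the region were not counted separately. It is in capitals in the windows of Tceal7 (chrX:136223791-136224090, plus strand), Tceal8 (chrX:136172202-136172501, minus strand) and Bex3 (chrX:136270003-136270302, plus strand), and it also lies within the run that Bex1 and Bex4 share. A match is a description of these letters, not of a bound factor.
Tceal7: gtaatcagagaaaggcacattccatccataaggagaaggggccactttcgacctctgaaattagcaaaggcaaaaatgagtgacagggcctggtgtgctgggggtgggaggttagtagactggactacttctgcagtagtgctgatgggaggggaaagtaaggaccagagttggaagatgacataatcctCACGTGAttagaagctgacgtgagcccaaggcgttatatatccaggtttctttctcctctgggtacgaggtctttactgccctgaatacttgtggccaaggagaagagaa
Tceal8: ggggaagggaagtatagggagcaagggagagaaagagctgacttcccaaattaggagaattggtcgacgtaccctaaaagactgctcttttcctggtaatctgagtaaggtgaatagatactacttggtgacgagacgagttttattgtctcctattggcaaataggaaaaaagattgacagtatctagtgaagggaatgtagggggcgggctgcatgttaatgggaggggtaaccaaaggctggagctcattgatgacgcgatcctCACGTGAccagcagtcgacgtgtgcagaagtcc
Bex3: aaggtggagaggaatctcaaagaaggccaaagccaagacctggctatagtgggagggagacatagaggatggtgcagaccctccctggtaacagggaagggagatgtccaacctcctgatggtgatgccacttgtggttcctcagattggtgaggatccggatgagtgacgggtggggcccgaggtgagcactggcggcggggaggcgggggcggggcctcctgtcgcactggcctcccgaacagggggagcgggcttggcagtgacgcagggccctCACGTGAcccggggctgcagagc

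RNA was compared between the groups across 11317 genes that passed the filter on low counts, of which 56.8% were called (28.1% higher and 28.7% lower in Lin28a+). Of the 10 members, 7 passed the filter. Apart from Tceal7, 1 of the 6 that passed was called higher and 2 were called lower, a share close to that of all genes. CPM values are not scaled to transcript length, so levels are compared only within a gene.

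**Figure D1:**
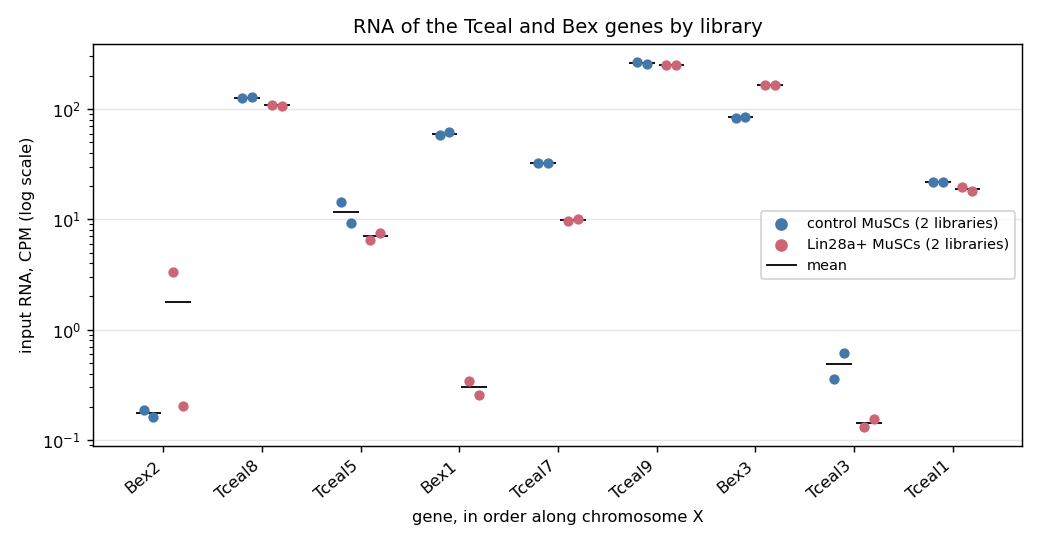
Input RNA in CPM (log axis) of the 9 members in the input table, in their order along chromosome X, with 1 point per library and a bar at each group's mean. Bex1 is near 60.0 CPM in the control libraries and 0.300 CPM in Lin28a+ MuSCs, Bex3 is higher, and Tceal1, Tceal8 and Tceal9 differ little.

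Among the Bex genes, RNA of Bex1 (ENSMUSG00000050071) was almost lost. It was 58.5 and 61.5 CPM in the control libraries and 0.344 and 0.256 CPM in the Lin28a+ libraries. The summed rounded counts were 694 and 3, a control to Lin28a+ ratio of 199.8 with a 95% counting interval of 68.1 to 971.3. The fitted log2 fold change was -7.54 (SE 0.83, n = 2 per group, adjusted p = 5.19e-06), the second lowest of all genes tested, and with so few counts it depends on the prior count of the fit.

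Bex3 (ENSMUSG00000046432), the p75-binding member, moved the other way. Its RNA was 83.4 and 85.1 CPM in the control libraries and 165.6 and 166.0 CPM in Lin28a+ libraries. The groups were far apart and the libraries of a group nearly equal. The rise was 1.97-fold (log2 fold change 0.98, SE 0.058, n = 2 per group, adjusted p = 1.15e-05).

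Bex2 (ENSMUSG00000042750), which is close to Bex1 in sequence, did not pass the filter and was not tested. It stood at 0.188 and 0.162 CPM in the control libraries and at 3.34 and 0.205 CPM in Lin28a+ libraries. A single Lin28a+ library, with 17 counts, was above the rest, and the other 3 libraries had about 1 count each. Bex4 was not analysed in the input.

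Tceal7 (ENSMUSG00000079428) had the largest difference of the 5 Tceal members that passed the filter. Its RNA was 32.8 and 32.5 CPM in the control libraries and 9.63 and 10.1 CPM in Lin28a+ libraries. The mean was 3.28-fold lower in Lin28a+ MuSCs (log2 fold change -1.72, SE 0.16, n = 2 per group), which was only the 368th lowest of the 11317 genes.

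Tceal8 (ENSMUSG00000051579) fell slightly, from 125.4 and 129.1 CPM in control to 108.7 and 107.0 CPM in Lin28a+ libraries. The groups did not overlap (nor did they in 84.9% of all genes tested), and the log2 fold change was -0.24 (SE 0.058, n = 2 per group, adjusted p = 0.00147 in edgeR). DESeq2, which called 26.9% of all genes, did not call it (adjusted p = 0.134).

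Tceal5 (ENSMUSG00000054034) was 14.2 and 9.23 CPM in the control libraries and 6.57 and 7.48 CPM in Lin28a+ libraries. The control libraries differed from each other by more than the lower of them did from the Lin28a+ libraries. The log2 fold change of -0.71 (SE 0.25, n = 2 per group) did not pass the test (adjusted p = 0.0532). Without control replicate 2 it was -1.02 and passed (adjusted p = 0.00169), without control replicate 1 it was -0.39 (adjusted p = 0.199), and without a Lin28a+ library it was -0.60 or -0.83 (adjusted p = 0.213 and 0.112). Reads of Tceal5 can be shared with the near-identical Tceal3 and Tceal6, so its values are uncertain.

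The remaining Tceal members differed little or did not pass the filter. Tceal1 (ENSMUSG00000049536) was 21.7 CPM in both control libraries and 19.9 and 18.0 CPM in Lin28a+ libraries (log2 fold change -0.20, SE 0.14, adjusted p = 0.215 in edgeR). Tceal9 (ENSMUSG00000042712) was 266.1 and 257.5 CPM in the control libraries and 251.3 and 249.3 CPM in Lin28a+ libraries (log2 fold change -0.06, SE 0.039, adjusted p = 0.161 in edgeR). Tceal3 (ENSMUSG00000044550) was at 0.359 and 0.615 CPM in the control libraries and at 0.130 and 0.153 CPM in Lin28a+ libraries. With 6 against 2 rounded counts, the control to Lin28a+ ratio was 2.59 with a 95% counting interval of 0.463 to 26.3, so a difference was not detectable at this depth.

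In the m6A-RIP, 9 members had 11 rows of counts, each row named by a transcript, and Bex1 had none. In 8 rows both Lin28a+ libraries were below both control libraries (40.7% of all 18881 rows), in 1 row they were above (40% of all rows), and in 2 rows the groups overlapped. Without regard to direction, 80.6% of all rows had no overlap. The members were drawn from this contrast, so nothing is read from the counts.

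**Figure D2:**
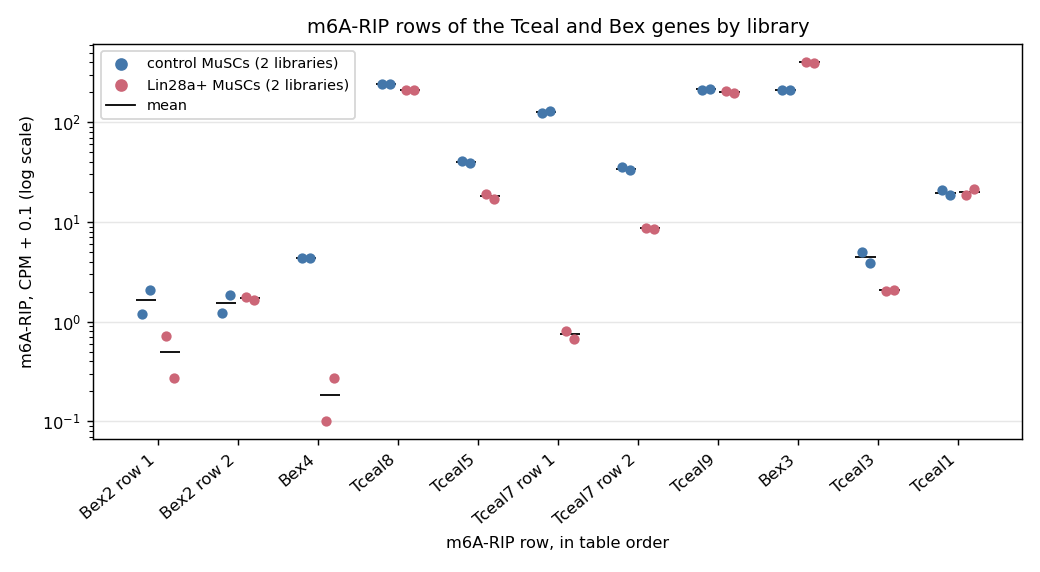
m6A-RIP signal (CPM plus 0.1, log axis) of the 11 rows of the family in table order, with 1 point per library and a bar at each group's mean. Row 1 of Tceal7 and the row of Bex4 are close to the floor in Lin28a+ MuSCs, and the row of Bex3 is the one in which both Lin28a+ libraries are above both control libraries.

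The row of Tceal7 named ENSMUST00000126811 held 4176 and 2918 counts in control and 16 and 17 counts in Lin28a+ libraries. On the CPM scale this was 124.7 and 129.2 against 0.710 and 0.576. The signal was 198.6-fold lower in Lin28a+ MuSCs (log2 fold change -7.63), the fourth lowest value of the 18881 rows.

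The other row of Tceal7, ENSMUST00000113116, behaved like the RNA of the gene. It was 35.1 and 33.1 CPM in the control libraries and 8.70 and 8.40 CPM in Lin28a+ libraries, 4.00-fold lower in the mean. The 2 rows thus differed by 5.63 on the log2 scale, which ranked 8th among 4899 genes with several rows, where the median difference was 0.27.

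Bex1, the neighbour of Tceal7, had no m6A-RIP row of its own, whereas 77.2% of 808 genes within 1.2-fold of its control RNA level had at least 1, and so did 65.6% of all tested genes. The fitted fold differences were 185.6 for Bex1 RNA, which rests on 3 Lin28a+ counts (counting interval of the ratio 68.1 to 971.3), 198.6 for this row and 3.28 for the RNA of Tceal7. The m6A table gives no positions, so whether the row holds reads of Tceal7 or of Bex1 was not tested, and values of this row are given under the name that the table carries.

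**Figure D3:**
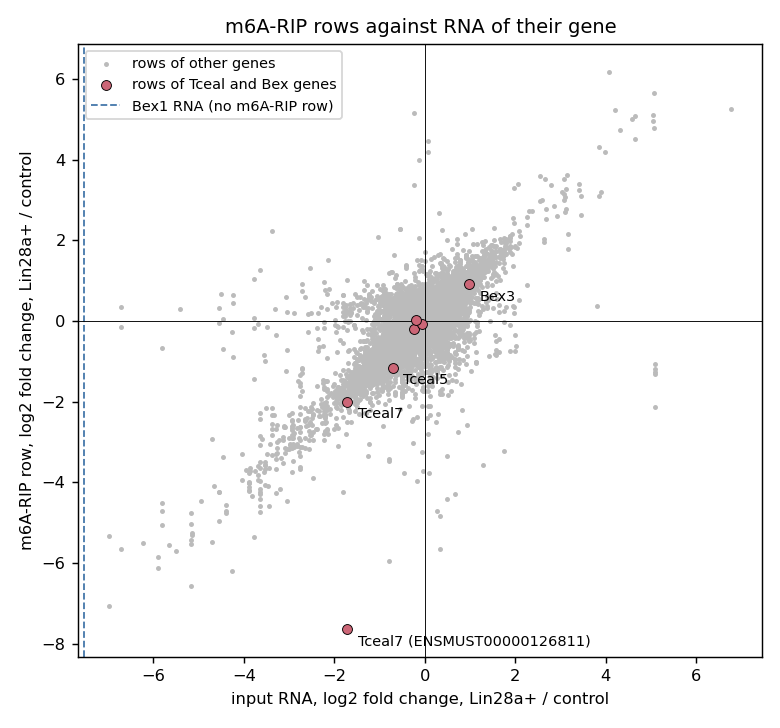
Log2 fold change (Lin28a+ over control) of each m6A-RIP row against that of the RNA of its gene, with the Tceal and Bex rows in red, all others in grey, and a dashed line at the RNA change of Bex1. The Tceal7 row of ENSMUST00000126811 (-7.63) lies far below the other rows at its RNA value, and the other Tceal7 row lies among them.

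Bex4 had a single low row, with 141 and 97 counts in control and 0 and 5 counts in Lin28a+ libraries. This was 4.21 and 4.30 CPM against 0 and 0.169 CPM, so the row was nearly empty in Lin28a+ cells. The promoter run that Bex4 shares with Bex1 lies mostly before the annotated start, and the transcripts of these genes were not compared here. How reads that match more than 1 gene were assigned is not given in the sources used here, so the values of this row are uncertain.

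Bex3, whose RNA rose, was also higher in the m6A-RIP. Its row was 212.9 and 213.0 CPM in the control libraries and 403.3 and 397.4 CPM in Lin28a+ libraries, a 1.88-fold higher mean (log2 fold change 0.91). Bex2 had 2 rows of low count, 1 with 37 and 45 counts in control and 14 and 5 counts in Lin28a+ libraries, and 1 with 38 and 40 against 38 and 46 counts. The groups overlapped in the latter row, and both rows are so low that single reads matter.

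Tceal5 was 40.8 and 39.1 CPM in the control libraries and 19.0 and 16.9 CPM in Lin28a+ libraries (log2 fold change -1.16). Tceal3, a close relative, was 4.93 and 3.76 CPM against 1.95 and 1.97 CPM, with the same log2 fold change of -1.16. In both genes the control libraries lay above the Lin28a+ libraries with no overlap. Tceal8 was 243.3 and 244.0 CPM in the control libraries and 211.0 and 212.6 CPM in Lin28a+ libraries (log2 fold change -0.20). Tceal9 was 210.6 and 217.1 against 206.8 and 197.4 CPM (log2 fold change -0.08), and Tceal1 was 20.8 and 18.4 against 18.7 and 21.3 CPM (log2 fold change 0.03). The last 3 genes thus differed little, as their RNA did.

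To set methylated RNA against RNA, the rows of a gene were summed and their change compared with that of the input in 1 model, as a description. Over 7415 genes the median change relative to input was -0.01 on the log2 scale. Tceal8 (-0.01), Tceal9 (-0.06), Bex3 (-0.11) and Tceal1 (0.18) were near it, and Tceal5 was at -0.49. The value of Tceal5 was -0.83 without control input replicate 1 and -0.19 without control input replicate 2. Tceal7 was at -2.46, and without the row of ENSMUST00000126811 it was at -0.33, so nearly all of its difference from input rested on that row.

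In control MuSCs the members that passed the filter in both assays lay on both sides of the median methylation signal. Tceal3 and Bex2, which did not pass it in the input, are left out. The log2 ratio of m6A-RIP to input (1 CPM added to both) had a median of 0.48 over the tested genes. It was 1.69 for Tceal5 (percentile 79.2), 1.33 for Bex3 (71.3) and 0.93 for Tceal8 (61.6). Tceal1, at -0.14 (35.3), and Tceal9, at -0.29 (32.1), were below the median. In Lin28a+ MuSCs the ratio of Bex3 was 1.27. The ratio of Tceal7 in control MuSCs was 2.27 (percentile 88.7) with both rows and 0.06 (percentile 39.8), below the median, without the row of ENSMUST00000126811. In Lin28a+ MuSCs it was -0.09 with both rows and -0.19 without that row.

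Igf2bp3-RIP peaks were found in 2 members, Tceal7 with 1 peak and Tceal8 with 2, and all 3 lay inside their gene. None of the 3 was called by edgeR (0.123% of all 19465 peaks were called), and none had an unadjusted p under 0.05 (5.22% of all peaks did). DESeq2 also called 0 of the 3 (1.35% of all peaks). With the replicate number as a block, edgeR called all 3 (adjusted p = 0.00692 and 0.00938 for the Tceal8 peaks and 0.000689 for the Tceal7 peak) and 10.2% of all peaks, but the labels do not say that equal numbers mark paired libraries. Libraries of the same group differed widely in this assay. The coefficient of variation beyond counting error was 27.9%, against 2.48% in the input and 7.72% in the m6A-RIP. Differences between replicates 1 and 2 correlated between the groups (r = 0.70 over 19465 peaks), and the source of this spread was not tested.

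The Tceal7 peak (chrX:136225127-136226039, 913 bp) was annotated to ENSMUST00000113116, the transcript of the milder m6A row. It was 67.3 and 38.3 CPM in the control libraries and 45.0 and 19.2 CPM in Lin28a+ libraries. The groups overlapped, and the log2 fold change was -0.72 (SE 0.48, n = 2 per group, adjusted p = 1.00). Leaving out single libraries gave -1.46 (without Lin28a+ replicate 1) to -0.23 (without Lin28a+ replicate 2).

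The Tceal8 peaks were both higher in the mean of the Lin28a+ libraries, although RNA of Tceal8 was slightly lower there. The peak at chrX:136170097-136170533 (437 bp) was 46.3 and 39.0 CPM in the control libraries and 73.9 and 61.4 CPM in Lin28a+ libraries. Its groups did not overlap (31.8% of all peaks did not), with a log2 fold change of 0.67 (SE 0.28, n = 2 per group, adjusted p = 0.968). The peak at chrX:136170805-136171193 (389 bp) was 197.0 and 76.9 CPM in the control libraries and 286.1 and 134.1 CPM in Lin28a+ libraries, which overlapped (log2 fold change 0.62, SE 0.54, adjusted p = 1.00). Without Lin28a+ replicate 1 the log2 fold change was -0.028. Between libraries of the same number, all 3 peaks differed in the direction of their means.

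**Figure D4:**
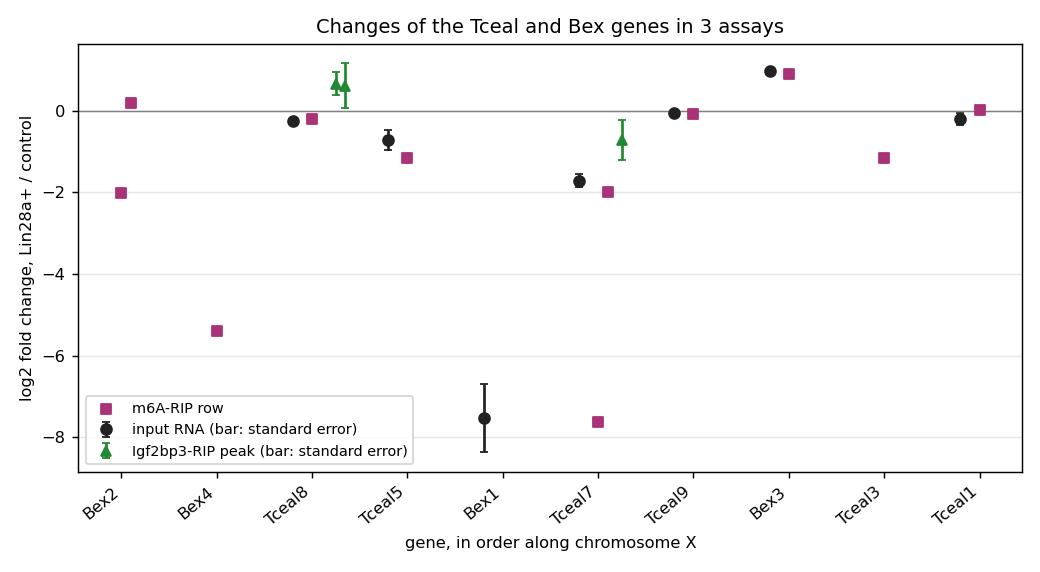
Log2 fold change (Lin28a+ over control) of input RNA, m6A-RIP rows and Igf2bp3-RIP peaks for the 10 members in order along chromosome X, with standard errors for RNA and Igf2bp3-RIP. The values near -7.5 are Bex1 RNA and the Tceal7 row of ENSMUST00000126811 in neighbouring genes, and Bex3 RNA is at 0.98.

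Lin28a-RIP held no peak of the 10 members, and 0 of its 21616 peaks lay in the 643309-bp span. Among genes tested in RNA, 25.4% had a Lin28a-RIP peak and 32.9% had an Igf2bp3-RIP peak. The table lists called peaks only, so a binding level below the threshold of the peak caller cannot be given.

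Other genes of the pathways in which the family is known were compared in RNA. Of 24 tested transcription elongation factors, 6 were called higher and 10 lower (66.7% called, against 56.8% of all genes), with a median log2 fold change of -0.12 against 0.01 over all genes. Nelfe, a subunit of the negative elongation factor, rose from 20.3 and 20.9 to 35.2 and 37.6 CPM (log2 fold change 0.82, adjusted p = 0.000168). Ell2, a subunit of the super elongation complex, fell from 10.2 and 9.36 to 3.19 and 2.76 CPM (log2 fold change -1.68, adjusted p = 0.000142). The list thus held calls in both directions.

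Of 15 tested genes of the p75 neurotrophin receptor and its partners, 5 were called higher and 2 lower, with a median of 0.04. This was 46.7% called, against 56.8% of all genes. Maged1, a p75-binding protein also called NRAGE, rose from 281.9 and 287.1 to 448.1 and 448.3 CPM (log2 fold change 0.66, adjusted p = 1.84e-05). Sort1, the sortilin co-receptor, fell from 35.3 and 39.6 to 20.7 and 18.9 CPM (log2 fold change -0.93, adjusted p = 0.000372). The receptor Ngfr itself was too low to test, at 1.23 to 2.26 CPM over the 4 libraries.

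Of 22 tested neighbours in the same region of chromosome X, 9 were called higher and 7 lower, with a median of 0.07. This was 72.7% called, against 56.8% of all genes. Tceal6, the near-copy of Tceal3 and Tceal5, fell from 2.54 and 3.08 to 0.227 and 0.213 CPM, which rests on 33 against 2 rounded counts (ratio 14.3, 95% counting interval 3.65 to 122.6). Nxf7, a gene of the nuclear RNA export family, rose from 0.0312 and 0.0910 to 2.94 and 3.31 CPM. The region held calls in both directions, as did all genes tested (28.1% higher and 28.7% lower).

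Of 15 tested myogenic regulators, 4 were called higher and 6 lower, with a median of -0.08. This was 66.7% called, against 56.8% of all genes. Cdkn1c, the cell cycle inhibitor p57, rose from 0.487 and 0.322 to 11.2 and 10.5 CPM (log2 fold change 4.57, adjusted p = 3.35e-05 in edgeR). Its estimated counts in the control libraries were only 2.60 and 2, so the size of the rise is uncertain. Ccnd1, cyclin D1, fell from 588.9 and 584.6 to 76.9 and 76.0 CPM (log2 fold change -2.94, adjusted p = 1.26e-06). These values belong to the same libraries in which Bex1 fell, and no relation between them was tested.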

How the data were processed

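The data are 14 libraries of control and Lin28a+ MuSCs. Per the submitters' processing notes and the study's methods, reads were trimmed, aligned with HISAT2 2.0.4 and peaks called with MACS2 1.4.3. The notes name GRCh38 and mm10 as builds. Identifiers and peak positions are those of mouse. RIP tables hold the raw counts of peaks that the authors deposited, without positions for m6A. The input table holds estimated counts, deposited with decimals for many genes and rounded here before testing, so that a library's sum is not its number of reads. The counting program, peak threshold, pooling and treatment of multi-mapping reads are not given in the sources used here.

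In the input table, both Lin28a+ columns bear m6A-RIP names, and in the m6A-RIP table both bear the same name. For m6A-RIP the group was taken from the name, and for the input from the sample descriptions, which name that table. No replicate number was given to these columns.

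Counts were tested in R 4.3.3 with edgeR 4.0.16 (quasi-likelihood test, TMM factors, filterByExpr, Benjamini-Hochberg adjusted p under 0.05 over all genes or peaks), separately for each assay. DESeq2 1.42.0 was an alternative. CPM is counts scaled by TMM-adjusted library size, in the usual unit. A standard error is never below the Poisson counting error of the summed counts, and the interval of a count ratio covers counting error only. The fits were tested on simulated data. Promoters and positions are from RefSeq (GRCm38.p6), in which all 10 members matched by symbol.

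Members, gene lists and markers were chosen with earlier results of these data known. The result of 1 marker list is not reported here. All members were named, and in each gene list, but not by rule in the marker lists, the called gene with the largest fold change in each direction. Ngfr was named besides, after its values were seen. The alternatives were other size factors, other filters on low counts, DESeq2, a replicate block, leaving out each library and summing the rows of a gene.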

Additional observations from a re-analysis of the deposited data

How the results depend on the processing

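Of the members other than Tceal7, 3 were called in RNA. This was 2 with DESeq2, which called 26.9% of all genes instead of 56.8% and lost Tceal8, and 4 with total counts alone or without control replicate 2, which added Tceal5. Leaving out other libraries gave 3, and so did a minimum of 10 counts in every library, under which Bex1 was not tested and Tceal5 was called. Where 1 library of a group is left, it is assumed to vary like the other group. The Igf2bp3-RIP call of 0 of 3 peaks became 3 of 3 with the replicate number as a block (1988 peaks called instead of 24). The differences between replicates 1 and 2 correlated between the groups (r = 0.70 over 19465 peaks). With only 2 pairs and no label that a number marks a batch, the replicates were not treated as paired. DESeq2 called 263 peaks, and leaving out a library 108 to 193, none of them a member peak. The Tceal8 peak starting at chrX:136170805 ranged from -0.028 (without Lin28a+ replicate 1) to 1.45. No paired analysis was possible for m6A-RIP because both Lin28a+ columns share 1 name. None was run for the input, whose Lin28a+ columns bear the numbers of m6A-RIP libraries. The Tceal7 row of ENSMUST00000126811 (-7.63) was -7.79 with total counts alone, which moved the median of all rows to -0.15, and -7.77 to -7.47 without single libraries. With the rows of Tceal7 summed it was -4.18. Relative to input, Tceal7 moved from -2.46 to -0.33 without that row, an alternative chosen after seeing the data, as was its ratio to input without that row. No member had a Lin28a-RIP peak, so the overlap of 50% gave no value.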

Other observations

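The 5 rows of other genes that lay nearest to the ENSMUST00000126811 row of Tceal7 in the plane of RNA and m6A-RIP change were those of Eaf1, Klhdc4, Marveld2, 1700030C10Rik and Whrn. Their m6A-RIP counts in control and in Lin28a+ libraries were 92 and 58 against 0 and 2 for Eaf1, a partner of the ELL elongation factors, and 145 and 87 against 2 and 2 for Klhdc4. They were 105 and 72 against 2 and 0 for Marveld2, which encodes tricellulin of epithelial junctions, 92 and 90 against 0 and 4 for 1700030C10Rik, and 402 and 272 against 9 and 24 for Whrn. All 5 were lower in both Lin28a+ libraries, by the way they were chosen, and none had as many control counts as the Tceal7 row. RNA of Klhdc4 was slightly higher in Lin28a+ MuSCs (log2 fold change 0.32), that of Eaf1 lower (-0.79), that of Whrn lower (-1.82, near the -1.72 of Tceal7), and that of Marveld2 (-4.25) and 1700030C10Rik (-3.77) strongly lower as well.

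Among the neighbours of the family, the rows of Arxes1 and Arxes2 were 3.14- to 4.49-fold higher in the mean of the Lin28a+ libraries. The row of Armcx1 was 2.45-fold lower, and those of Armcx4 were 1.66- to 1.86-fold lower. The rows of Bhlhb9 went in opposite directions, 1.91-fold lower for ENSMUST00000207433 and 1.98-fold higher for ENSMUST00000151989. Rows of Morf4l2 overlapped between the groups.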
